A study of Mus musculus with 6 samples.

Results

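The genes described here encode the machinery that copies DNA in S phase, followed in whole pancreas of mice without Rkip-1 (Raf kinase inhibitor protein, the product of Pebp1) and of wild-type mice. The set is a list of 43 genes of origin licensing, the replicative helicase, the polymerases and fork proteins, nucleotide supply, histone supply and S phase entry. Its members were taken as every probe set whose platform annotation names exactly 1 gene, that gene being on the list. This gave 91 probe sets for 42 of the 43 genes, out of 18193 genes with such a probe set, and Chaf1a was not analysed here. A gene was read by the brightest of its probe sets over all 6 arrays.

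The groups were 3 Rkip-1 knockout samples (KO) and 3 wild-type samples (WT), each of whole pancreas from mice 8 weeks old in a C57BL/6 background and from a shared colony, with 1 Affymetrix array per sample. The labels do not give the knockout allele, the sex of the mice or the number of mice behind a sample, so the p-values measure the spread between these samples. Values are RMA expression on the log2 scale. Pebp1 measured 5.89, 6.50 and 5.71 in KO replicates 1, 2 and 3 against 9.81, 10.01 and 9.81 in WT, so the labels and the targeted gene matched in every array. The 7 acinar markers measured had a mean level of 12.83 to 12.94 in KO and 12.94 to 13.08 in WT. Of these, 6 had a difference (KO minus WT) below 0, with a median of -0.03. Ptf1a was lower by -0.56 (unadjusted p 0.031 by limma). Cpa1, Cpb1, Ctrb1, Cel and Rnase1 lay near the highest value of a tested probe set, 14.57. In whole tissue, fewer cycling cells and less of an mRNA per cell cannot be told apart.

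A cell prepares for replication in G1, when the origin recognition complex, Cdc6 and Cdt1 load the ring of Mcm2 to Mcm7 onto DNA. In S phase Cdc45 and the GINS complex turn that ring into the active helicase, and DNA polymerases follow it, held on by the sliding clamp Pcna. Most of these genes are transcribed under control of E2F factors when a cell enters the cycle, and the adult pancreas has few cycling cells. Rkip-1 is known for holding back signalling through Raf, MEK and ERK, and the series was made to ask about its role in beta cell proliferation.

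Replication genes lay mostly lower in KO, by small amounts, and no single member passed the test across all genes. By limma, 0 of the 42 members passed an adjusted p under 0.05, where 0.132% of all genes passed, and the lowest adjusted p of a member was 0.25. At an unadjusted p under 0.05, 11 of 42 members were lower in KO, against a background of 5.58% of all genes lower. They were Cdt1, Gmnn, Cdc6, Orc2, Mcm4, Mcm5, Mcm6, Pcna, Rfc4, Lig1 and Tipin. Cdc45 was the 1 member higher at that level, where the background was 4.55%. In 10 members all KO values lay below all WT values, against 7.56% of all genes, and in 3 members they lay above, against 6.87%. The fitted difference was below 0 in 32 of 42 members, against 50.2% of all genes, with a median of -0.15 on the log2 scale. The median over all genes was -0.00056.

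**Figure D1:**
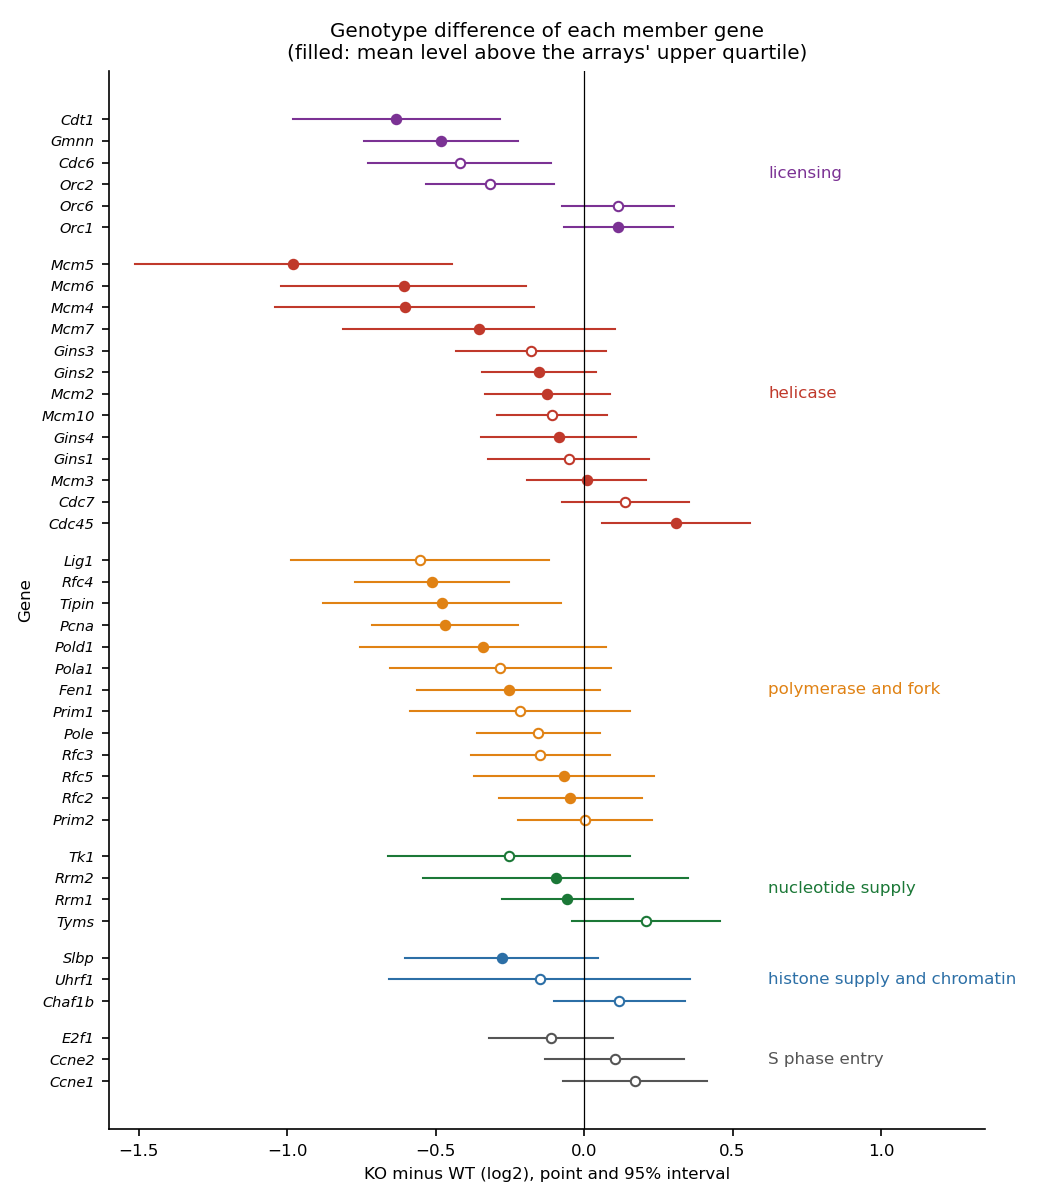
Difference between KO and WT on the log2 scale for each of the 42 genes, by its brightest probe set, with 95% intervals from the moderated standard error (horizontal lines), grouped and coloured by role. Filled points mark genes whose mean level is above the arrays' upper quartile of 4.54, and intervals entirely below 0 are those of the 11 genes named as lower.

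Level bears on how these differences read. Bright genes as a whole tended to be lower in KO. Among the 7140 genes whose mean was above the arrays' upper quartile of 4.54, 9.68% were lower at an unadjusted p under 0.05 and the median difference was -0.04. Of the 22 members above that level, 8 were lower, with a median of -0.27. Of the 20 members at or below it, 3 were lower, against 2.94% of all genes of that level, with a median of -0.13. Differences of dim probe sets can be too small, since background adds to their signal.

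The licensing genes included Cdt1 and Cdc6, which load the ring, and the inhibitor of Cdt1 among the lower members. Of 6 measured, 4 were lower at an unadjusted p under 0.05, against 5.58% of all genes, with a group median of -0.37. Cdt1, which brings the Mcm ring to the origin, measured 4.98, 4.78 and 5.19 in KO and 5.76, 5.80 and 5.28 in WT. Each KO value lay below each WT value, with WT replicate 3 the closest to KO. The difference of -0.63 had a 95% interval of -0.98 to -0.28 (unadjusted p 0.0025, adjusted p 0.276 by limma). A second Cdt1 probe set lay in the same direction at -0.56, and a dim one did not, at 0.16.

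Geminin (Gmnn), which binds Cdt1 and blocks a second round of licensing, was lower too. It measured 5.31, 5.45 and 5.45 in KO and 5.78, 6.13 and 5.76 in WT, again without overlap. The difference was -0.48 (-0.74 to -0.22, unadjusted p 0.0021, adjusted p 0.275). Thus the loader and its inhibitor lay on the same side.

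Cdc6, the ATPase that works with Cdt1, was dim on these arrays, at 2.68, 2.71 and 2.77 in KO and 3.40, 3.19 and 2.82 in WT. The KO values and WT replicate 3 lie under the array medians of 2.97 to 3.02. The difference was -0.42 (-0.73 to -0.11, unadjusted p 0.0129, adjusted p 0.426), and -0.29 without WT replicate 1. Orc2, a subunit of the origin recognition complex, measured 3.69, 3.53 and 3.79 in KO and 4.01, 4.01 and 3.95 in WT, a difference of -0.32 (unadjusted p 0.0082, adjusted p 0.389). Its other probe sets gave 0.06 and -0.20.

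Orc1 and Orc6, the other origin subunits on the list, went the other way by little at their brightest probe sets. Orc1 differed by 0.12 (-0.07 to 0.30) and Orc6 by 0.12 (-0.07 to 0.30), each with all KO values above all WT values. Neither had an unadjusted p under 0.05. A dim second Orc1 probe set gave -0.04. Orc3, Orc4 and Orc5, which are not on the list, differed by -0.38, -0.04 and -0.14.

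The ring of the helicase was uneven, both between its subunits and between probe sets of a subunit. Of 13 helicase genes, 3 were lower and 1 was higher at an unadjusted p under 0.05, against 5.58% and 4.55% of all genes. The group median was -0.12. Mcm5 measured 5.48, 4.86 and 5.92 in KO and 6.62, 6.49 and 6.09 in WT. All KO values were below all WT values, and KO replicate 2 was the lowest array by far. The difference of -0.98 corresponds to a 1.97-fold lower level (95% interval 1.36 to 2.85, unadjusted p 0.0023, adjusted p 0.276). This rests on 1 probe set, whose suffix _x_at marks probes that can match other transcripts. The other 2 Mcm5 probe sets, both dim, gave -0.19 (unadjusted p 0.233) and -0.13, with overlapping groups, so the size depended on the probe set, and without suffixed probe sets Mcm5 was not among the lower genes.

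Mcm4 measured 5.32, 5.12 and 5.69 in KO and 6.23, 6.16 and 5.55 in WT, a difference of -0.60 (-1.04 to -0.17, adjusted p 0.417). Mcm6 measured 5.83, 5.48 and 6.05 in KO and 6.44, 6.71 and 6.04 in WT, a difference of -0.61 (-1.02 to -0.19, adjusted p 0.389). In both genes WT replicate 3 lay inside the KO range, so the groups overlapped. The second Mcm4 probe set gave -0.44, and those of Mcm6 gave -0.35 and -0.12.

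Mcm7 had the same order of arrays within each genotype as Mcm6, with an interval that included 0. It measured 6.42, 6.06 and 6.60 in KO and 6.83, 7.06 and 6.25 in WT, a difference of -0.35 (-0.81 to 0.10), and its other 3 probe sets gave -0.38, -0.16 and -0.41 (unadjusted p 0.015 for the last). The difference was -0.18 without WT replicate 2, -0.20 without KO replicate 2 and -0.59 without WT replicate 3, where the unadjusted p was 0.0061. Mcm2 measured 6.92, 6.85 and 6.94 in KO and 7.14, 6.91 and 7.02 in WT, a difference of -0.12 (-0.33 to 0.09), while its second probe set differed by -0.40 with an unadjusted p of 0.0111. For Mcm2 the size thus depended on the probe set.

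Mcm3 lay between 4.74 and 4.88 in all 6 arrays by its brightest probe set, a difference of 0.01 (-0.19 to 0.21). Its other probe sets disagreed among themselves. They gave -0.34 (unadjusted p 0.0058), -0.25, 0.19 and 0.22 (unadjusted p 0.0438). No direction can be given for this subunit.

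**Figure D2:**
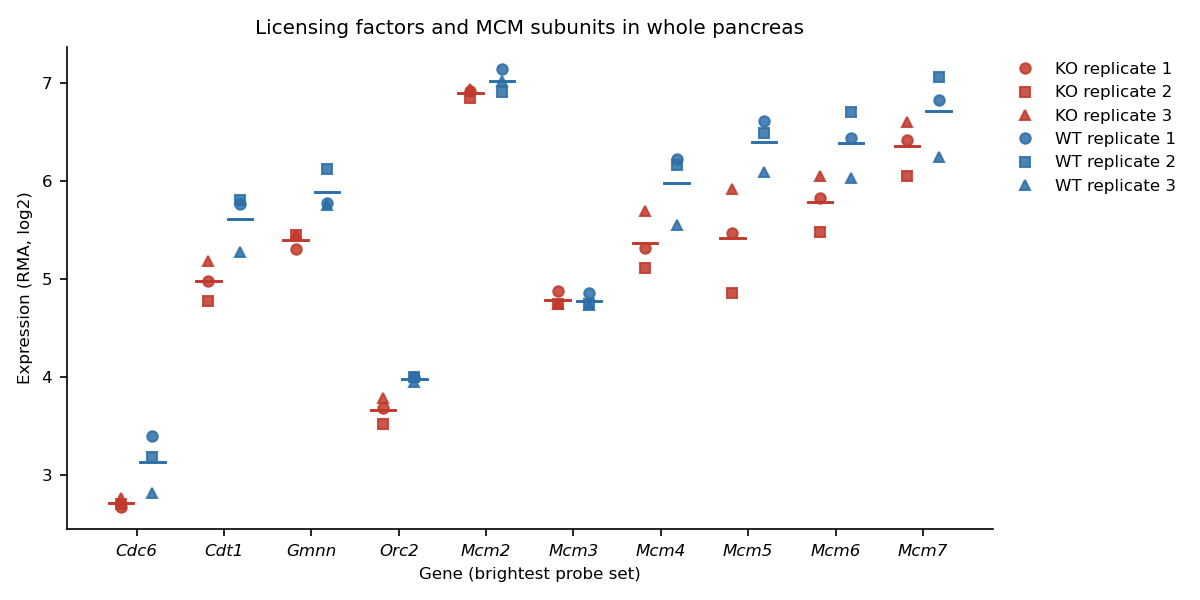
Expression on the log2 scale of 4 licensing genes and the 6 subunits of the Mcm ring in each array, by the brightest probe set, with horizontal bars at group means of 3 arrays. KO replicate 2 (red square) is the lowest array for Cdt1, Mcm4, Mcm5, Mcm6 and Mcm7, WT replicate 3 (blue triangle) is the lowest WT array for each of them, and levels of different genes are not comparable because probes differ.

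The proteins that turn the ring on showed no common direction. Cdc45, which joins the ring at origin firing, measured 5.29, 5.21 and 5.21 in KO and 4.70, 5.02 and 5.07 in WT, a difference of 0.31 (0.06 to 0.56, unadjusted p 0.02, adjusted p 0.47). A dimmer Cdc45 probe set gave -0.08. The GINS genes, whose products complete the active helicase, differed by -0.05 for Gins1, -0.15 for Gins2, -0.18 for Gins3 and -0.09 for Gins4. Mcm10, an initiation factor, differed by -0.11, and the kinase gene Cdc7 by 0.14. By the brightest probe sets, none of these but Cdc45 had an unadjusted p under 0.05. A second, dim Gins2 probe set gave -0.29 (unadjusted p 0.0266), and neither Gins2 probe set overlapped between the groups.

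The control regions of these genes could be set beside the differences, since E2F sites are the best known feature of replication promoters. RefSeq promoter windows of mouse build GRCm38.p6, from 250 bases before to 50 after an annotated start, were found for 32 of the 42 members. They were searched on both strands for the E2F sequences TTTCCCGC, TTTCGCGC, TTTGCCGC and TTTGGCGC, which can overlap each other when read from both strands. A match was found in 13 of 32 members (40.6%), against 704 of 27025 genes (2.6%), or 2.26% of all windows. The list was drawn up from replication genes, many of them known E2F targets, so this share describes the list.

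The 180 bases before the start are shown for Mcm6, Mcm5 and Cdc6, which were lower in KO and hold a match there, with E2F matches in capitals, and for Pcna, lower as well, which holds none, with its CCAAT box in capitals. Each is written 5′ to 3′ on the strand of the gene and ends at the base before the start.
Mcm6, chr1:128359706-128359885, minus strand: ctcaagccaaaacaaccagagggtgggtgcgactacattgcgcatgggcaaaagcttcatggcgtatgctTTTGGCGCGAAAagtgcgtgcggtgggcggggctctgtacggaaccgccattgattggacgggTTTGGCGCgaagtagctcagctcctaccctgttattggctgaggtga
Mcm5, chr8:75109329-75109508, plus strand: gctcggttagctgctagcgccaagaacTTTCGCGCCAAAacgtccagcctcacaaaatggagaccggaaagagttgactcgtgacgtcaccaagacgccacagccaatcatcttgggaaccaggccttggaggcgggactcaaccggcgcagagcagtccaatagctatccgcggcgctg
Cdc6, chr11:98907971-98908150, plus strand: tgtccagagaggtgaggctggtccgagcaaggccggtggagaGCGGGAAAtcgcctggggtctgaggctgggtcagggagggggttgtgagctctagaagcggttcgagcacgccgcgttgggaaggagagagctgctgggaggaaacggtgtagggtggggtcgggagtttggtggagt
Pcna, chr2:132253181-132253360, minus strand: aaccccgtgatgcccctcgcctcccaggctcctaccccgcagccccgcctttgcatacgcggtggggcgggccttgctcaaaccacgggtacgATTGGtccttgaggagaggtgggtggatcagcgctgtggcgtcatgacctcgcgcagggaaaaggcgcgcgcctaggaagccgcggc

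The Mcm6 stretch holds 3 matches, of which 2 overlap on opposite strands at positions -110 to -99, counted from the start, and the third lies at -47 to -40. The Mcm5 stretch holds 2 that overlap the same way, at positions -153 to -142. Cdc6 has 1, on the opposite strand. The 13 members with a match were Cdc6, Cdt1, Gins3, Lig1, Mcm3, Mcm5, Mcm6, Mcm7, Orc1, Pola1, Pold1, Rfc3 and Uhrf1. Of these 11 had a difference below 0 and 5 were lower at an unadjusted p under 0.05, with a median of -0.34. Of the 19 members with a window and no match, 13 had a difference below 0 and 3 were lower, with a median of -0.11. Over all genes, 50.2% had a difference below 0 and 5.58% were lower. A match is a stretch of letters and not a measured binding site, and Pcna, Rfc4 and Orc2 were lower with no match in the window. For Gmnn, Mcm4 and Tipin, which were lower too, no window was found.

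Polymerase and fork genes had the highest share of differences below 0 of the 6 role groups, 12 of 13. Of these, 4 were lower at an unadjusted p under 0.05, and the group median was -0.25. Over all genes, 50.2% had a difference below 0 and 5.58% were lower at that level. The group median was -0.41 without WT replicate 3 and -0.17 without WT replicate 1. Pcna, the clamp that tethers polymerases to DNA, measured 8.00, 7.87 and 7.87 in KO and 8.52, 8.45 and 8.17 in WT. The KO values were tight and all below WT, and the difference was -0.47 (-0.72 to -0.22, unadjusted p 0.0018, adjusted p 0.261).

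Rfc4, a subunit of the loader that opens the clamp, measured 5.12, 4.90 and 4.92 in KO and 5.68, 5.31 and 5.48 in WT. It had the smallest p of all members, with a difference of -0.51 (-0.77 to -0.25, unadjusted p 0.0015, adjusted p 0.249) and no overlap. The other loader subunits lay closer to 0 by their brightest probe sets, with Rfc2 at -0.05, Rfc3 at -0.15 and Rfc5 at -0.07. The other Rfc2 probe sets gave -0.16 and -0.26. Rfc3 was dim, with a mean of 2.82 that lies under the array medians, and its second probe set gave 0.06. A second Rfc4 probe set gave -0.19.

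Lig1, the ligase that seals Okazaki fragments, measured 4.20, 4.13 and 3.80 in KO and 4.98, 4.65 and 4.16 in WT. WT replicate 3 lay within the KO range, and the difference was -0.55 (-0.99 to -0.12, adjusted p 0.456). Tipin, a partner of Timeless that stabilises the fork, differed by -0.48 (-0.88 to -0.08, adjusted p 0.494). Fen1, the nuclease that trims Okazaki fragments, differed by -0.25 (-0.56 to 0.05), and by -0.77 (unadjusted p 0.0394) at a second probe set.

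The polymerases themselves did not reach an unadjusted p under 0.05. Pola1, the catalytic subunit of polymerase alpha, differed by -0.28, Pold1 of polymerase delta by -0.34 and Pole of polymerase epsilon by -0.15. Pola1 and Pole were dim, with means of 3.19 and 2.97 near the array medians, where differences can be too small. The primase genes Prim1 and Prim2 differed by -0.22 and 0.00.

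By their brightest probe sets, the nucleotide supply genes did not reach an unadjusted p under 0.05 by limma, with a group median of -0.08. The intervals of Rrm2 and Tk1 were wide. Ribonucleotide reductase makes deoxynucleotides from a large subunit, Rrm1, and a small subunit made in S phase, Rrm2. Rrm1 measured 5.83, 5.62 and 5.69 in KO and 5.83, 5.84 and 5.65 in WT, a difference of -0.06 (-0.28 to 0.16). Rrm2 measured 7.43, 6.57 and 7.21 in KO and 7.25, 7.31 and 6.94 in WT, a difference of -0.10 (-0.54 to 0.35). For Rrm2 the lowest array was KO replicate 2 and the highest was KO replicate 1, so the spread within KO exceeded the difference between groups.

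Tk1, the thymidine kinase of the salvage route, measured 3.25, 2.86 and 3.56 in KO and 3.52, 3.71 and 3.19 in WT, a difference of -0.25 (-0.66 to 0.16). Tyms, thymidylate synthase, lay under the array medians in all 6 arrays, at 1.92 to 2.42, so its difference of 0.21 (-0.04 to 0.46) carries little information on the gene. Its other 3 probe sets were as dim. Of related genes that are not on the list, Dut differed by -0.47 (unadjusted p 0.0052 by limma), without overlap of the groups. Dck differed by -0.17, Dtymk by -0.12 and Rrm2b by 0.11.

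No gene of histone supply or S phase entry had an unadjusted p under 0.05. Slbp, which binds the stem loop of histone mRNAs, measured 5.63, 5.64 and 5.96 in KO and 5.97, 6.31 and 5.79 in WT, a difference of -0.28 (-0.60 to 0.05). Uhrf1, which keeps DNA methylation through replication, measured 3.60, 2.94 and 3.73 in KO and 3.78, 3.79 and 3.14 in WT, with a difference of -0.15 (-0.66 to 0.36). Chaf1b, of the chromatin assembly factor, measured 3.24, 3.07 and 2.99 in KO and 3.08, 2.93 and 2.95 in WT, a difference of 0.12 (-0.10 to 0.34).

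Cyclin E drives entry into S phase. Ccne1 measured 3.88, 3.76 and 3.92 in KO and 3.86, 3.68 and 3.51 in WT, a difference of 0.17 (-0.07 to 0.41). A second Ccne1 probe set of nearly the same level gave -0.03. Ccne2 measured 3.67, 3.41 and 3.58 in KO and 3.58, 3.34 and 3.44 in WT, a difference of 0.10 (-0.13 to 0.34). E2f1, the activator of these promoters, measured 4.27, 4.24 and 4.22 in KO and 4.39, 4.46 and 4.22 in WT, a difference of -0.11 (-0.32 to 0.10). Its other probe sets lay on the other side, at 0.10 and 0.03. All of these genes lay below the arrays' upper quartile, where differences can be too small.

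The individual arrays showed that the lower levels were not shared evenly. The median deviation of the 42 members from each gene's mean over the 6 arrays was -0.05, -0.13 and -0.03 in KO replicates 1, 2 and 3, and 0.17, 0.12 and -0.04 in WT. WT replicate 3 thus sat among the KO arrays. KO replicate 2 was the lowest array for 16 members (38.1%, against 16.9% of all genes). WT replicates 1 and 2 were each the highest for 15 members (35.7%), against 19.4% and 15.8% of all genes, and WT replicate 3 was the highest for 0 of 42, against 16.3% of all genes.

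**Figure D3:**
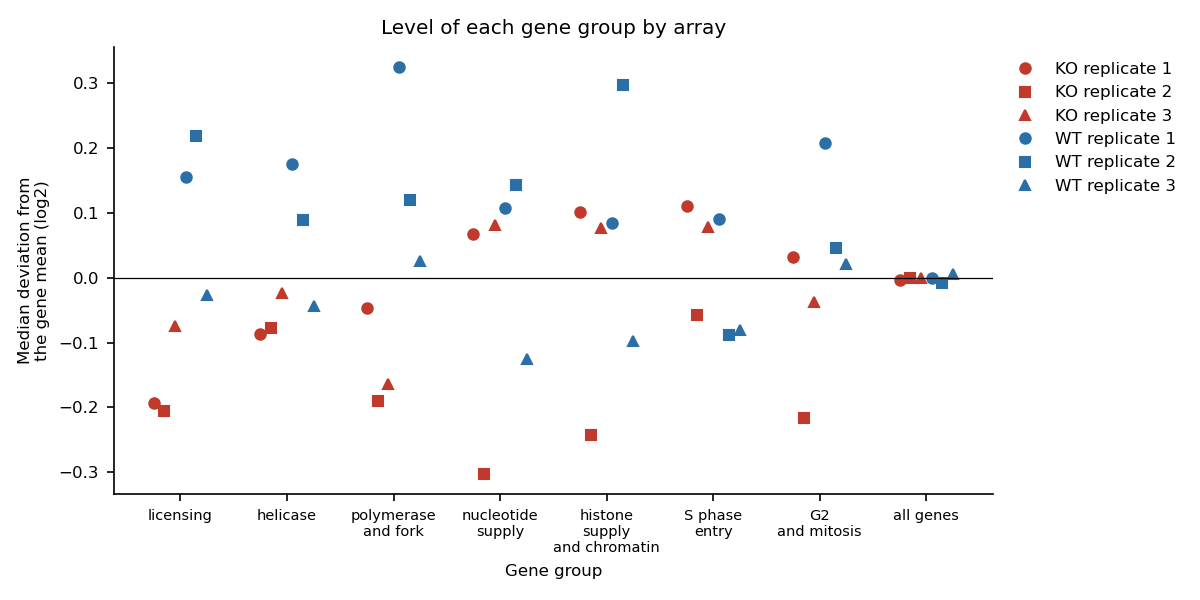
Median deviation, on the log2 scale, of the genes of each role group from each gene's mean over the 6 arrays, with 1 point per array (KO red, WT blue). In the polymerase and fork group every KO array is below every WT array, whereas in nucleotide supply KO replicate 2 stands low at -0.30 and the other arrays lie between -0.13 and 0.14.

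The groups differed in which arrays stood out. For licensing genes the deviations were -0.19, -0.21 and -0.07 in KO and 0.16, 0.22 and -0.03 in WT, and for polymerase and fork genes -0.05, -0.19 and -0.16 in KO and 0.32, 0.12 and 0.03 in WT. In both groups the genotypes did not overlap. For helicase genes they were -0.09, -0.08 and -0.02 in KO and 0.18, 0.09 and -0.04 in WT, so that WT replicate 3 lay inside the KO range. For nucleotide supply they were 0.07, -0.30 and 0.08 in KO and 0.11, 0.14 and -0.13 in WT.

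The arrays also differed in Xist, the RNA of the inactive X chromosome of females, which measured 9.11 and 9.79 in KO replicates 2 and 3, 9.09 in WT replicate 3 and at most 4.44 in each remaining array. Transcripts of the Y chromosome (Uty, Kdm5d and Eif2s3y) were higher in the arrays of low Xist. Within the 3 arrays of low Xist, 1 KO and 2 WT, 29 of 42 members were lower in KO, with a median of -0.19. Within the 3 arrays of high Xist, 2 KO and 1 WT, 22 of 42 (52.4%) were lower, near the 51.6% of all genes. The median of the members was -0.06. The same medians over all genes were -0.0002 and -0.007. These values have no test, because each class holds a single array of 1 genotype. KO replicate 1, the KO array of the low class, had the lowest median deviation of any array for stellate and fibroblast markers (-0.50). The same held for adipocyte (-0.37) and macrophage (-0.35) markers, and not for lymphoid, endothelial, red cell and gut markers. The part of this in the low class was not tested.

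The 11 members named as lower were lower in both Xist classes, although by unequal amounts. They had been picked for being lower over these same arrays, and that choice favours such an outcome. No share was taken for other genes picked the same way, so no conclusion on Xist class is drawn from these 11. Cdt1 differed by -0.80 in the low class and -0.30 in the high class, Gmnn by -0.64 and -0.30, and Pcna by -0.49 and -0.30. Mcm5 differed by -1.08 and -0.70, Rfc4 by -0.38 and -0.57, and Orc2 by -0.32 and -0.29. For Cdc6 and Mcm4 the high class gave -0.08 and -0.14, against -0.62 and -0.88. Over the whole set, 18 of 42 members (42.9%) were lower in both classes and 9 were higher in both, against 27.8% and 26.2% of all genes.

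**Figure D4:**
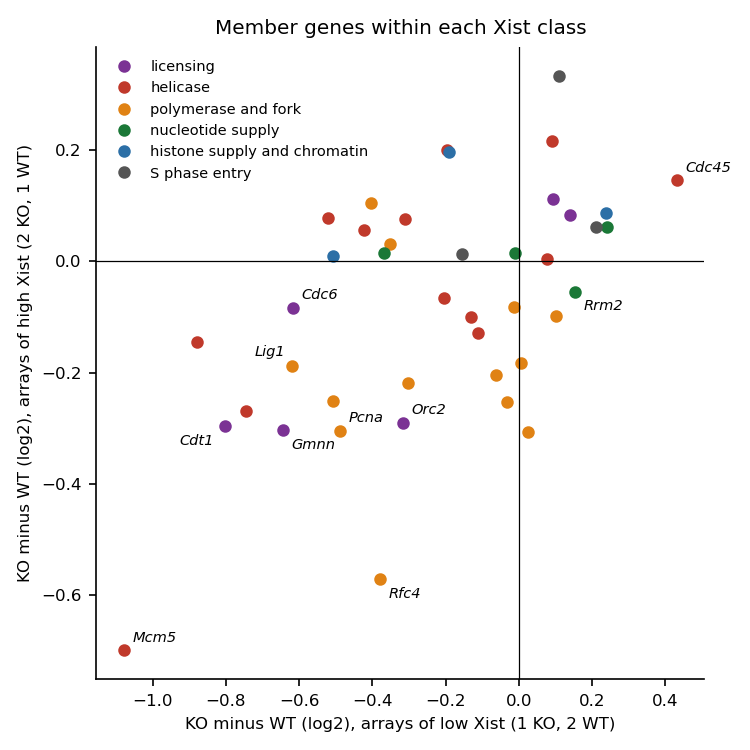
Difference between KO and WT on the log2 scale for each of the 42 genes within the arrays of low Xist (horizontal axis, 1 KO and 2 WT) and within those of high Xist (vertical axis, 2 KO and 1 WT), coloured by role. The 18 genes at the lower left are lower in KO in both classes, with Mcm5 and Rfc4 farthest down.

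Several probe sets were available for 31 of the genes and did not always agree. In 15 of the 31 genes every other probe set lay on the same side of 0 as the brightest, and in 16 at least 1 did not. Of the 91 probe sets, 66 had a difference below 0, 17 were lower at an unadjusted p under 0.05 (background 4.66% of all probe sets) and 2 were higher (background 4.01%). By limma 0 passed the adjusted threshold. Among the 6 lower genes with several probe sets, all the others were below 0 too for Mcm4, Mcm5, Mcm6 and Rfc4, while Cdt1 and Orc2 each had 1 dim probe set on the other side.

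**Figure D5:**
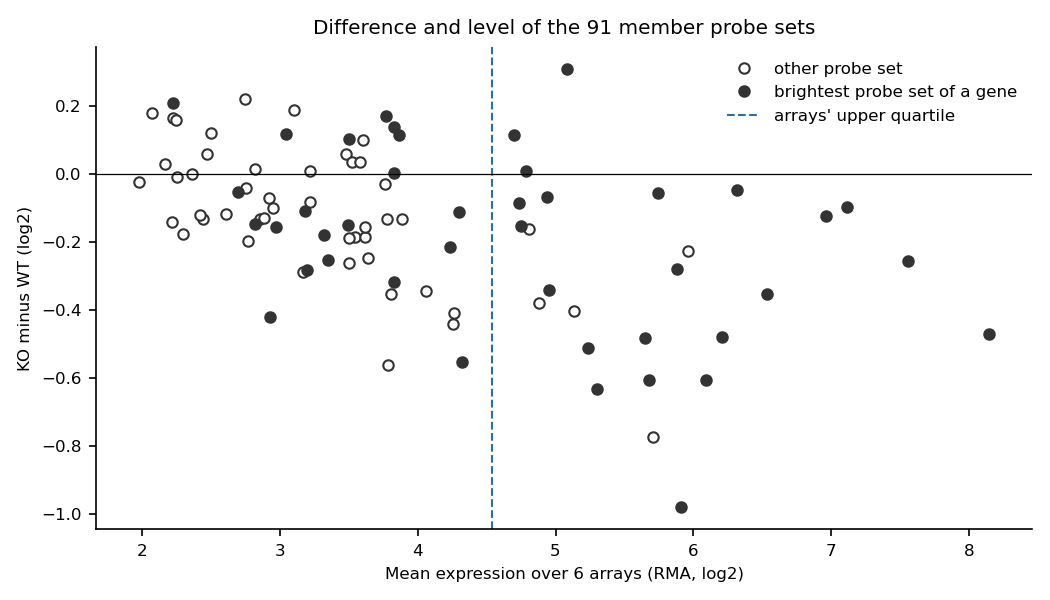
Difference between KO and WT on the log2 scale for the 91 probe sets against their mean level over 6 arrays, with the brightest probe set of each gene filled and the arrays' upper quartile of 4.54 dashed. Of the 91 probe sets 66 lie below 0, and most do so on both sides of the dashed line.

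Of 34 other genes of replication, 33 were measured. Of these, 22 had a difference below 0 (66.7%, against 50.2% of all genes) and 11 above 0. At an unadjusted p under 0.05, 7 were lower and 0 higher, against 5.58% and 4.55% of all genes, with a median of -0.11. Pold2, an accessory subunit of polymerase delta, measured 6.39, 6.13 and 6.40 in KO and 6.79, 6.78 and 6.70 in WT, a difference of -0.45. Rpa3, of the single-strand binding complex, differed by -0.44 and Orc3 by -0.38, and in all 3 genes the groups did not overlap. These were the 3 of smallest p, and none passed the adjusted threshold.

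Of 14 E2F and pocket protein genes, 2 were lower and 1 was higher at that level, with a median of -0.02. The same shares of all genes were 5.58% and 4.55%. Tfdp1, the dimer partner of E2F, measured 6.74, 6.57 and 6.68 in KO and 7.08, 7.08 and 6.87 in WT, a difference of -0.34. Rbl1 (p107) differed by -0.63 and Cdk2 by 0.25. Of 12 measured checkpoint and repair genes, 3 were lower and 1 higher, against the same shares of all genes, with a median of -0.10. Msh6, of mismatch repair, differed by -0.47, the checkpoint gene Rad1 by -0.31 and Rad51ap1 by -0.26. The 1 higher gene was the checkpoint gene Hus1, at 0.22, with all KO values above all WT values. Rad9a, a further checkpoint gene, differed by -0.05.

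Against 5.58% of all genes, 6 of 25 genes of G2 and mitosis, the phase that follows, were lower at an unadjusted p under 0.05. Of the 25, 0 were higher, against 4.55%, and the median was -0.14. In 4 of the 25 (16%) all KO values lay below all WT values. The share was 7.56% of all genes and 12.6% of genes above the upper quartile. The 3 of smallest p were Ccnb2, Cdc20 and Ccna2. Ccnb2, a cyclin of mitotic entry, measured 2.88, 2.69 and 3.10 in KO and 3.67, 3.65 and 3.36 in WT, without overlap, a difference of -0.67 (-0.96 to -0.38, unadjusted p 0.00047, adjusted p 0.177 by limma), at a dim level. Cdc20, an activator of the anaphase-promoting complex, measured 5.48, 5.34 and 5.47 in KO and 5.76, 5.71 and 5.58 in WT, a difference of -0.25 with no overlap. Ccna2, the cyclin of S phase and G2, differed by -0.62 (-1.15 to -0.09), and its groups overlapped. The difference between this list and the replication genes was not tested. Their median deviations by array were 0.03, -0.22 and -0.04 in KO and 0.21, 0.05 and 0.02 in WT, so that KO replicate 2 was lowest here as well. Mki67, a mark of cycling cells, measured 6.08, 4.65 and 5.95 in KO and 6.20, 6.32 and 5.71 in WT, a difference of -0.52 (-1.26 to 0.23). KO replicate 2 was the lowest array for Mki67, and WT replicate 3 lay below the other KO arrays.

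Markers of other cell types differed in part between the genotypes. At an unadjusted p under 0.05, 5.58% of all genes were lower and 4.55% higher. Of 8 stellate and fibroblast markers, 5 were lower at that level. The 8 had mean levels of 7.20 to 7.64 in KO and 7.78 to 8.02 in WT. All 8 differences were below 0, with a median of -0.46. In 5 genes all KO values lay below all WT values, against 7.56% of all genes. The collagen gene Col1a1 differed by -0.61, Col3a1 by -0.50 and the matrix protein gene Postn by -0.82. The median deviations of these markers by array were -0.50, -0.08 and -0.04 in KO and 0.16, 0.37 and 0.03 in WT, so that WT replicate 3 was the WT array closest to KO for them, as for the replication genes. Lymphoid markers (9 of 10 measured, 2 higher) had mean levels of 3.06 to 3.74 in KO and 3.35 to 3.72 in WT, macrophage markers (6 of 6, 1 lower) 5.15 to 5.76 and 5.48 to 5.73, endothelial markers (6 of 6, 1 lower) 3.85 to 4.09 and 4.02 to 4.10, and duct markers (4 of 6, 1 higher) 4.22 to 4.52 and 4.18 to 4.29. Islet markers (8 of 8, 1 lower and 1 higher) had mean levels of 7.78 to 7.95 in KO and 7.82 to 7.96 in WT. Adipocyte markers (4 of 6) ran from 4.07 to 5.17 and from 4.89 to 5.67, red cell markers (2 of 4) from 3.00 to 3.08 and from 2.94 to 3.07, and gut markers (5 of 5) from 2.74 to 2.91 and from 2.81 to 2.85, with 0 members at an unadjusted p under 0.05 by limma in these lists. RMA gives no value of 0, and the red cell and gut lists lay near the array medians. KO replicate 1 had the lowest mean level of the 6 arrays for lymphoid (3.06), macrophage (5.15) and adipocyte (4.07) markers. The part of the listed cell types in the replication differences was not tested.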

How the data were processed

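RNA of whole pancreas was measured on 6 Affymetrix arrays, 3 KO and 3 WT, grouped by sample title. The authors deposited log2 values per probe set, computed by RMA (affy package) according to the submitters' processing notes, with versions and settings not given in the sources. RMA makes the arrays' distributions alike, which hides a shift common to most genes, and it gives no detection call.

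Control probe sets (64 of 45101) were left out. Symbols from the platform annotation were updated by Entrez identifier through RefSeq (GRCm38.p6). Each of the 45037 probe sets was tested two-sided as KO minus WT with limma 3.58.1 (lmFit, eBayes; R 4.3.3), with no covariate and with Benjamini-Hochberg adjustment over all of them. Intervals are 95%, with 9.53 degrees of freedom. The code was tested on simulated data. The number of arrays limits the precision.

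Values in every array were given for Mcm2 to Mcm7, Pcna, Cdt1, Cdc6, Tyms, Tk1, Rrm1, Rrm2, Ccne1, Ccne2, E2f1 and the 3 members of smallest p per role, and for each pathway list the 3 genes of smallest p, and Mki67, were named. Members and lists were chosen with earlier results of these data known. Other genes named were chosen after their values were seen, as were the motif search and the promoters printed. Alternatives covered normalization, centring, dim probe sets, variance model, array weights, replicate number, Xist and the probe sets used.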

Additional observations from a re-analysis of the deposited data

How the results depend on the processing

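By limma, 0 members passed an adjusted p under 0.05 under any alternative run. At an adjusted p under 0.1, 0 passed in the fit as reported. Over the alternatives the adjusted p of Cdt1 fell as low as 0.099, just under that looser threshold. The count lower at an unadjusted p under 0.05 was 11 as reported and 8 to 15 over the alternatives, with 9 to 15 when 1 array was left out. The count higher was 1, and 0 to 2 with 1 array left out, being 0 without KO replicate 1 and 2 without WT replicate 3, and 0 when probe sets of a gene were averaged. The median difference of -0.15 was -0.27 among bright probe sets only, fewer genes being tested there, and -0.060 within the arrays of high Xist, a comparison added after seeing the data. It ran from -0.20 to -0.11 with 1 array left out. The replicate number as a block, where same-numbered samples deviated together at correlations of 0.19, -0.03 and -0.08 and so share only a number, left 11 lower and 1 higher with a median of -0.15.

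Of 23 genes with values in every array, 17 kept their direction throughout. Mcm3 turned to -0.013 with equal medians, -0.035 with averaged probe sets and -0.25 without those of the suffixes _x_at and _s_at, and ran from -0.036 to 0.046 with 1 array left out. With Xist as a covariate Rrm1, Rrm2 and Uhrf1 turned to 0.012, 0.064 and 0.014. With 1 array left out Rrm2 ran from -0.28 to 0.15 and Uhrf1 from -0.37 to 0.092, both turning without KO replicate 2. With averaged probe sets E2f1 turned to 0.0077 and Rrm1 to 0.038. Ccne1 turned to -0.029 without the suffixed probe sets. Over the alternatives Mcm5 ranged from -1.23 to -0.19 and Mcm2 from -0.40 to -0.05. The unadjusted p was over 0.05 for Mcm4 (0.052) without KO replicate 2. The same held for Lig1 when KO replicate 3 (difference -0.43), WT replicate 1 (-0.36) or WT replicate 2 (-0.52) was dropped. It fell under 0.05 for Slbp (-0.39) without KO replicate 3 or WT replicate 3, for Tk1 (-0.42) without KO replicate 3, for Ccne1 (0.26) without WT replicate 1 and for Tyms (0.29) without WT replicate 3. Among role medians, licensing was -0.48 among bright probe sets only and -0.25 with averaged probe sets, and polymerase and fork -0.14 with Xist as a covariate. Helicase ran from -0.17 to -0.096 with 1 array left out. Nucleotide supply ran from -0.19 to 0.072, histone supply and chromatin from -0.37 to 0.092 and S phase entry from 0.046 to 0.17. S phase entry was -0.03 without the suffixed probe sets. The cause of these shifts was not tested. Dim signal limits Tyms, Cdc6, Tk1 and the S phase entry genes. Other members, among them Gins1, Rfc3, Pole, Chaf1b, Mcm10 and Pola1, were dimmer than Tk1 and are limited too.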

Other observations

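The promoter windows of the replication genes differed in letters from those of the G2 and mitosis genes. The sequence TTTGAA, named the cell cycle genes homology region in mitotic promoters, was present on either strand in 15 of 20 mitotic genes with a window and in 5 of 32 replication genes, against 20.2% of all genes. CCAAT was present in 18 of 20 and 19 of 32, against 41.1%. E2F matches were present in 1 of the 20 mitotic genes. No test was made of these shares, which describe lists chosen by function.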
